A study of Mus musculus with 2 samples.

Results

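Open chromatin was examined at 7 genes of the canonical Wnt pathway in mouse embryonic stem cells (ESCs) with and without Uhrf1: the effector Ctnnb1, the TCF/LEF factors Lef1, Tcf7 and Tcf7l1, and the target genes Axin2, Sp5 and Cdx1. The members are genes of the pathway, chosen with earlier results of these data known, and every ATAC-seq peak in a gene with 50 kb on either side was assigned to it. They are 7 of 22225 protein-coding genes of the GENCODE vM1 annotation, and their windows held 89 of 71914 peaks listed for WT and 65 of 61640 listed for Uhrf1 KO. WT means undifferentiated E14 ESCs, and Uhrf1 KO means E14 ESCs that lack Uhrf1, a protein that binds hemi-methylated DNA and is needed to maintain DNA methylation. Both were grown in medium with serum and leukemia inhibitory factor on gelatin or on plates coated with mouse embryonic fibroblasts (MEFs), and no other treatment or allele is given for either. The sources used here do not say whether the KO cells are 1 clone. ATAC-seq uses the Tn5 transposase, which inserts adapters into DNA that nucleosomes leave accessible.

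1 library was sequenced per genotype, so no difference below has a replicate error and none was tested; the values compare these libraries, not the genotypes. The lists hold positions but no read counts, and the depth behind a single peak is unknown. Intervals are exact 95% intervals (Poisson for peak numbers, Clopper-Pearson for shares) that cover counting error only, and they are too narrow where neighbouring peaks come from the same open region. At Uhrf1 itself, 2 WT and 3 KO peaks lay within 2 kb of the gene's start, so the lists do not check the genotype labels. Of 7 ESC marker genes found in the annotation, 6 had a promoter peak in both libraries, with 23 WT and 18 KO promoter peaks in all. Esrrb had none within 2 kb of its annotated start. Of 8 fibroblast markers, which MEFs would express, 5 had a promoter peak in WT and 3 in KO, with 9 WT and 6 KO promoter peaks. Of all protein-coding genes, 60.9% had a promoter peak in WT and 55.7% in KO, so these few markers do not stand out from other genes. Lum, Twist2 and Postn had none in either list, and Dcn and Pdgfrb had 1 in WT and 0 in KO. Col1a1 had 4 in WT and 2 in KO, Col1a2 2 and 3, and Thy1 1 and 1. With 50 kb on either side, KO had more peaks at Col1a1 (14 WT and 16 KO), Col1a2 (5 and 6) and Thy1 (5 and 6). It had fewer at Dcn (1 and 0), Twist2 (3 and 1) and Pdgfrb (8 and 2), so the markers did not move in 1 direction. The part of fibroblasts in the results below was not tested.

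In the canonical pathway a Wnt ligand bound to Frizzled and Lrp receptors stops the destruction complex, built on Axin and Apc, from marking beta-catenin for degradation. Beta-catenin, the product of Ctnnb1, then enters the nucleus and binds TCF/LEF factors, which recognise DNA with the core CTTTGAT or the related CTTTGTT. In ESCs, Tcf7l1 acts mainly as a repressor of self-renewal genes, and beta-catenin relieves this repression. Axin2, Sp5 and Cdx1 are direct targets: Axin2 feeds back on the pathway as a scaffold of the destruction complex, Sp5 is a transcription factor of the Sp family, and Cdx1 is a caudal-type homeobox factor of posterior development.

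The peak sequences shown first are those closest to the start of the gene, because the libraries are compared there first. They were read 5′ to 3′ on the strand of the gene from the mm9 genome, only bases outside annotated exons are printed, and capitals mark CG dinucleotides, the sites of DNA methylation. The Ctnnb1 stretch is from a shared WT peak (chr9:120842463-120842517, plus strand), that of Lef1 is a whole shared WT peak (chr3:130813162-130813262, plus strand), that of Tcf7l1 is from a shared WT peak (chr6:72739249-72739293, minus strand) and that of Axin2 is from a shared KO peak (chr11:108781633-108781662, plus strand).
Ctnnb1: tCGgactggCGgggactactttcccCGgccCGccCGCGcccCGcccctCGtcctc
Lef1: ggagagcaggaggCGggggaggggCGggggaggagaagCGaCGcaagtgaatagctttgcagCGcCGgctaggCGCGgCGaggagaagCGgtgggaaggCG
Tcf7l1: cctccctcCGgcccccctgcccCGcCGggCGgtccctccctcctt
Axin2: cctttaaggCGggCGgCGCGCGggcCGgcc

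The second set holds the peaks in which CTTTGAT, in capitals, was found on either strand, because this is the sequence that ties a peak to the factors of the pathway. They are a shared WT peak −25512 bp from the start of Lef1 (chr3:130787827-130787927, plus strand), a shared KO peak −165 bp from that of Tcf7 (chr11:52096796-52096896, minus strand), the part outside exons of a shared WT peak at +861 bp of Axin2 (chr11:108782508-108782574, plus strand), and 30 bases of the WT-only peak at +127 bp of Sp5, which lies in the UTR (chr2:70313057-70313086, plus strand). A WT peak at −190 bp of Tcf7 covers the same match as its KO peak. The peaks of Tcf7 and Sp5 are also the ones nearest to the starts of those genes.
Lef1: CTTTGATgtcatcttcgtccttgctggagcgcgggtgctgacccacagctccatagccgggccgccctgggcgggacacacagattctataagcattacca
Tcf7: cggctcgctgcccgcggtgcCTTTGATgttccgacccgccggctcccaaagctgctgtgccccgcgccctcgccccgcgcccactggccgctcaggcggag
Axin2: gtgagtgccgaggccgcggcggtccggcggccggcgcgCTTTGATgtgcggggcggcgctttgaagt
Sp5: agagccgctattCTTTGATgattgggtagc

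Peak numbers were compared first between the target genes and the other genes of the pathway, a split made with the values known. The windows of Axin2, Sp5 and Cdx1 together held 39 WT peaks and 15 KO peaks, a KO/WT ratio of 0.385 (interval 0.197 to 0.714). The windows of Ctnnb1, Lef1, Tcf7 and Tcf7l1 held 50 WT and 50 KO peaks, a ratio of 1.00 (0.662 to 1.51), and the intervals of these ratios overlap. The ratio of 1.00 balances 1.67 at Ctnnb1 and 1.22 at Tcf7l1 against lower ratios at Lef1 and Tcf7. Over all peaks of the lists the ratio was 0.857 (0.848 to 0.866), and over the 7 genes together 0.730 (0.522 to 1.02). The low ratio of the targets came from Sp5, with 12 WT and 3 KO peaks, and Cdx1, with 11 and 2, while Axin2 had 16 and 10, a ratio of 0.625 beside 0.750 at Tcf7 and 0.824 at Lef1. Of 13442 protein-coding genes with 10 or more peaks of both libraries together, 12.0% had at least 2 times as many WT as KO peaks, and 0.796% at least 2 times as many KO as WT peaks. Of the 6 members that reached 10 peaks, Sp5 and Cdx1 met the first rule and 0 met the second, a count over genes whose results were known when they were chosen. Among the 6064 genes with 11 or more WT peaks, a limit set by the values of Sp5 and Cdx1 themselves, 1.04% had a ratio as low as that of Sp5. The median ratio of the 13442 genes was 0.818.

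**Figure D1:**
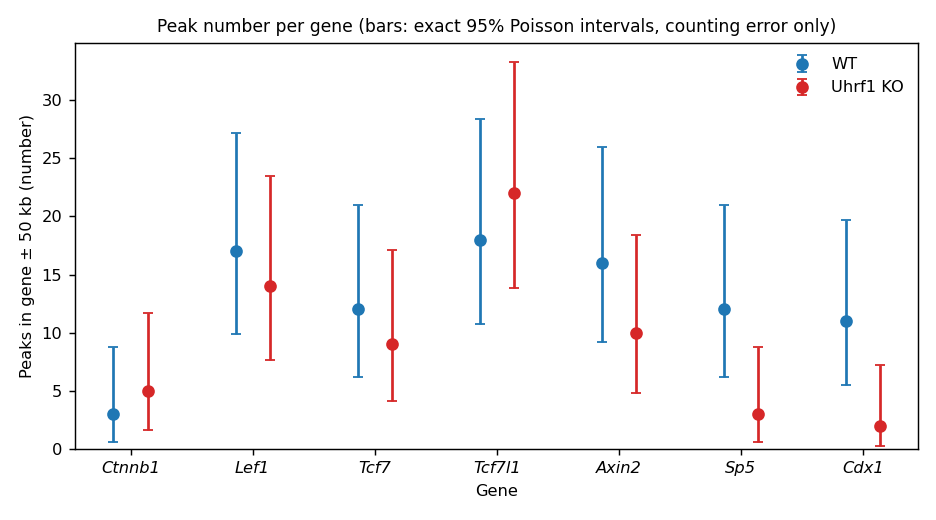
Points give the number of peaks listed in each gene with 50 kb on either side (vertical axis, linear) for WT and Uhrf1 KO, 1 library each, and bars are exact 95% Poisson intervals for counting error. Sp5 (12 and 3) and Cdx1 (11 and 2) show the widest gaps between the libraries, whereas the points of the other 5 genes differ by 2 to 6 peaks and lie within each other's intervals.

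**Figure D2:**
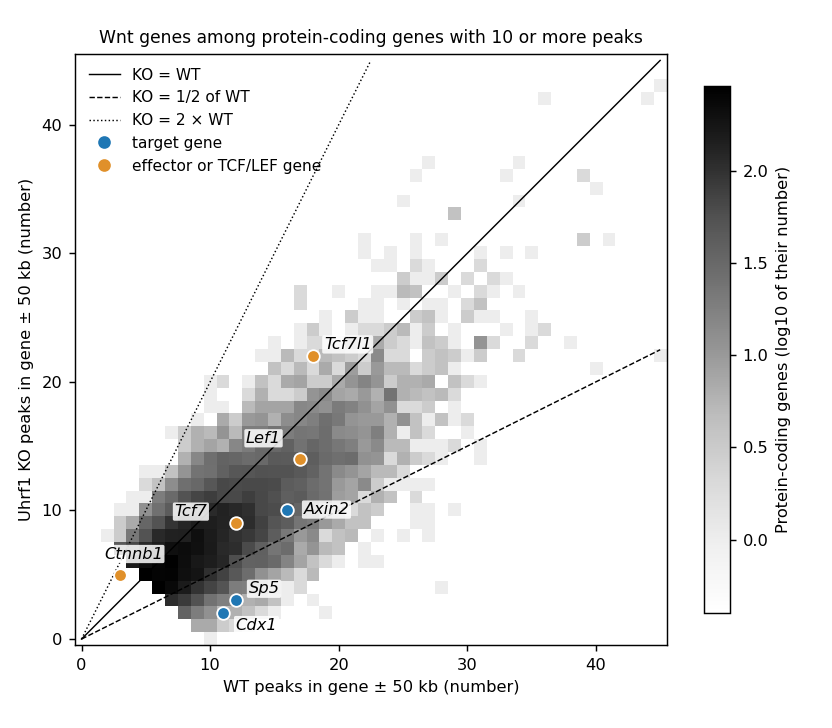
The grey squares count protein-coding genes with 10 or more peaks by their WT (horizontal) and KO (vertical) peak numbers, darker for more genes on a log10 scale, and 4 genes beyond 45 peaks are not drawn. Sp5 and Cdx1 lie under the dashed line that marks 2 times as many WT as KO peaks, and the other members lie between the dashed and the dotted lines.

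The same genes differed in how far the positions were shared. A peak was called shared when a peak of the other library lay within 100 bp, and WT-only or KO-only otherwise. Of 39 WT peaks at the targets, 20 were WT-only (51.3%, interval 34.8 to 67.6), against 32.1% of all WT peaks, and 0 of 15 KO peaks were KO-only, which allows up to 21.8%, against 24.6% of all KO peaks. At the effector and TCF/LEF genes, 12 of 50 WT peaks (24.0%, 13.1 to 38.2) and 14 of 50 KO peaks (28.0%, 16.2 to 42.5) were not shared. In the full lists the gap lay near transcript starts, which include those of neighbouring genes such as Slc6a7, Pdgfrb and Gm16292. Within 2 kb of any annotated transcript start, 14 of 22 WT peaks at the targets were WT-only (63.6%, 40.7 to 82.8), against 2 of 21 at the other 4 genes (9.52%, 1.17 to 30.4) and 26.1% of all WT peaks there. Further than 2 kb from a start, the share was 35.3% at the targets, 34.5% at the other genes and 39.0% over all WT peaks. Sp5 gave 8 of the 20 WT-only peaks of the targets, Cdx1 9 and Axin2 3.

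Shared peaks did not sit at identical positions. The 57 shared WT peaks of the 7 genes had a median offset of 18 bp between the start of the peak and that of its nearest KO peak and at most 170 bp, 0 matched to the base, and 21 lay within 10 bp. The central 31 bp of each of the 89 WT and 65 KO peaks occurred once in the genome, so none is a copy of a repeated sequence over that length. Over the 7 genes, WT-only peaks had a median GC content of 63.4% (range 47.5 to 82.2) and shared WT peaks 58.4% (48.5 to 82.2), while the 14 KO-only peaks had a median of 54.0% (46.5 to 89.1). Over all peaks the medians were 60.4% for WT-only, 61.4% for shared WT and 51.5% for KO-only peaks. The part of base composition in these differences was not tested.

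The number in the name of a peak, which runs upward along each chromosome's list in an order that the sources used here do not explain, moved with sharing. Expressed as a percent of the names of its chromosome, its median was 35.8% for shared and 73.9% for WT-only peaks of the whole WT list. At the 7 genes it was 35.1% for shared and 75.4% for WT-only WT peaks. All 8 WT-only peaks of Sp5 lay between 50.9% and 93.5%, and the 9 of Cdx1 between 49.7% and 97.3%. When only the lower 50% of name numbers was kept in both lists, Sp5 had 3 WT and 2 KO peaks and Cdx1 had 1 and 1, so the difference at these genes was carried by peaks of high name number. Within the upper 50%, 19 of 24 WT peaks at the targets were WT-only (79.2%, 57.8 to 92.9), against 11 of 26 at the other genes (42.3%, 23.4 to 63.1) and 53.3% of all WT peaks of that range. Within the lower 50% the targets showed no such excess, with 1 of 15 WT peaks WT-only (6.67%, 0.169 to 31.9). The other genes had 1 of 24 there (4.17%, 0.105 to 21.1), and all WT peaks of that range 10.8%. When the WT list was shortened by name number to the length of the KO list, Sp5 held 9 WT and 3 KO peaks, Cdx1 5 and 2, and the ratio of the targets was 0.500 (0.250 to 0.959).

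**Figure D3:**
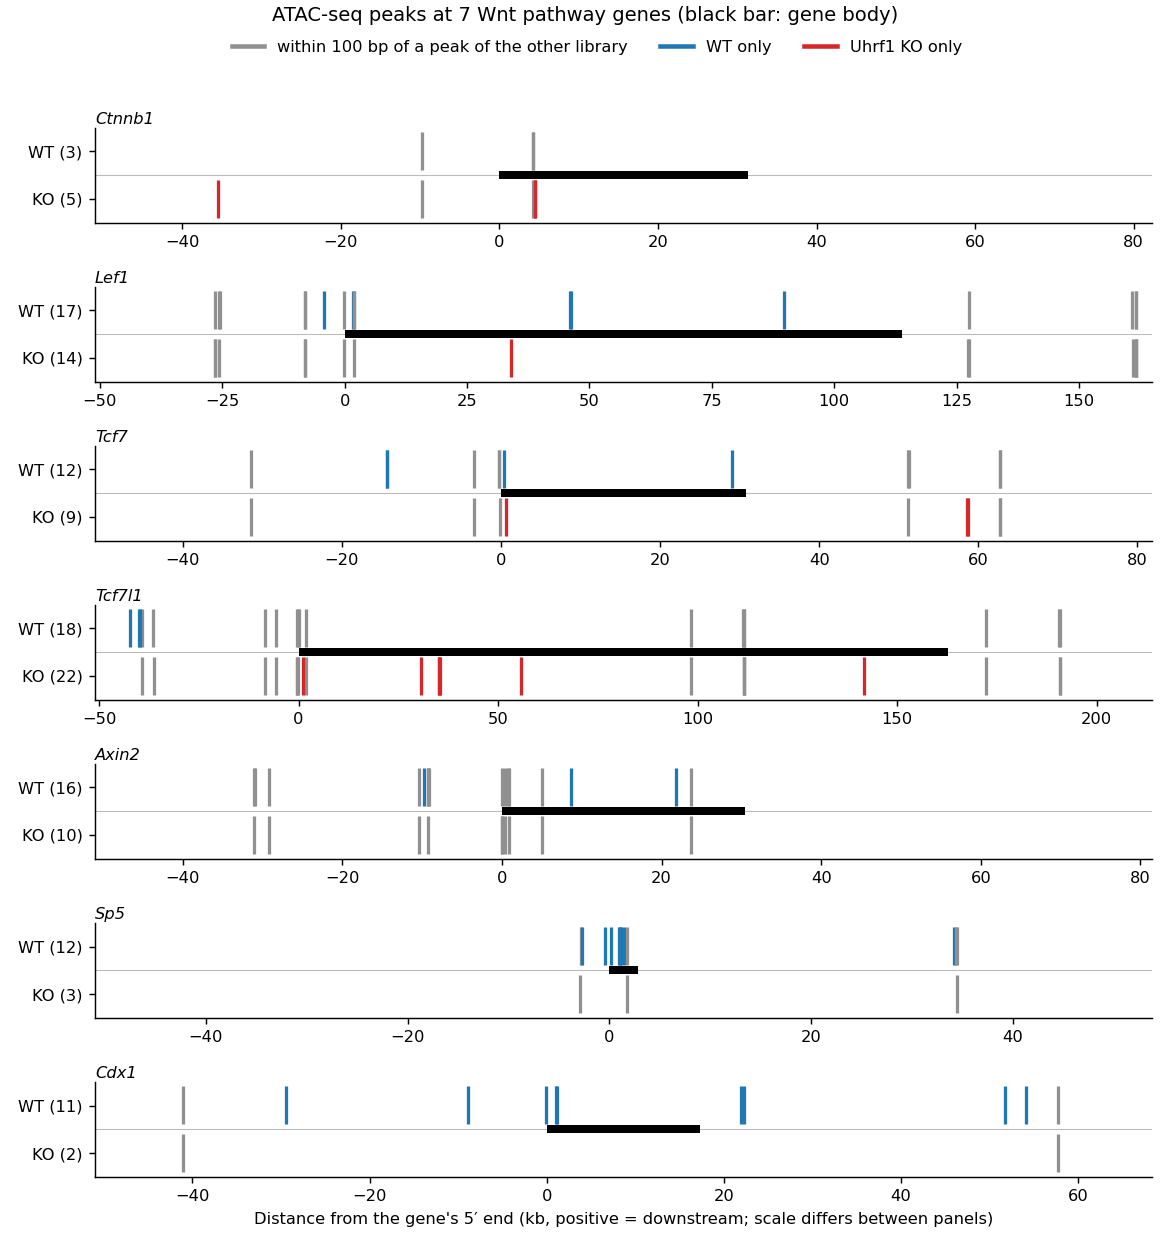
Each panel shows 1 gene with 50 kb on either side, with the distance from the gene's 5′ end in kb on the horizontal axis (scale differs between panels), WT peaks above and Uhrf1 KO peaks below the line, and the gene body as a black bar. Grey marks are shared peaks, blue WT-only and red KO-only: blue marks fill Sp5 and Cdx1, no red mark stands at Axin2, Sp5 or Cdx1, and red marks cluster in the gene body of Tcf7l1.

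Ctnnb1 encodes beta-catenin, the protein that carries the signal to the nucleus. In mm9 coordinates the gene (ENSMUSG00000006932.9, plus strand) spans 120838334 to 120869625 of chromosome 9. Its window had the fewest peaks in WT, with 3 in WT (interval 0.619 to 8.77) and 5 in KO (1.62 to 11.7), numbers that do not tell the libraries apart. With the lower 50% of name numbers, described above, the order turned, to 2 in WT and 0 in KO. Distances run from the gene's 5′ end (TSS) to the peak middle and are negative upstream. No peak of either library lay within 2 kb of the annotated 5′ end. The peaks instead gathered around further annotated transcript starts of Ctnnb1: in WT at +4179 and +4271 bp, which is −5 and 1 bp from the nearest such start, and in KO at +4186 bp, 2 bp from it. Both libraries also shared a peak in the intergenic DNA upstream, at −9746 bp in WT and −9737 bp in KO.

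The other 3 KO peaks of Ctnnb1 were KO-only. Those at +4489 and +4542 bp lay in the first part of the gene, 117 and 170 bp from the closest WT peak, with GC contents of 89.1% and 88.1%, and so border on the open region that the libraries share. The one at −35552 bp was 25705 bp from any WT peak. The start region of Ctnnb1 was thus listed in both libraries. The name numbers there differed between the lists, at 27.8% and 33.5% in WT and 99.7% to 99.8% in KO.

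Lef1, the TCF/LEF factor first known from lymphocytes, lies on chromosome 3 from 130813389 to 130927274 on the plus strand (ENSMUSG00000027985.8). Its window held 17 WT (9.90 to 27.2) and 14 KO peaks (7.65 to 23.5). The promoter peak was shared, at −177 bp in WT and −205 bp in KO. Within 2 kb of the TSS WT had 4 peaks and KO 2, and the extra WT peak that was not shared lay in the intron at +1686 bp, 200 bp from a KO peak. A group of upstream peaks was present in both libraries at about the same places, at −26526, −25674, −25512, −8167 and −8113 bp in WT and at −26590, −26534, −25678, −8061 and −8008 bp in KO.

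The libraries differed inside and just upstream of Lef1. WT-only peaks lay at −4326 bp, a GC-rich peak (76.2%), and in introns at +46082, +46149 and +89819 bp. KO had 1 KO-only peak, in an intron at +33943 bp, and it held CTTTGTT. The last part of the window belongs to Hadh, a mitochondrial fatty acid oxidation gene, whose start at +161614 bp (WT) and +161608 bp (KO) was open in both. Counted by the nearest annotated transcript start, 7 WT and 3 KO peaks were nearest to Lef1's own starts.

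Tcf7, which encodes TCF1, lies on chromosome 11 from 52065873 to 52096681 on the minus strand (ENSMUSG00000000782.8). Its window held 12 WT (6.20 to 21.0) and 9 KO peaks (4.12 to 17.1). The promoter peaks that hold CTTTGAT were shared, at −190 bp in WT and −165 bp in KO, and WT had a further shared peak at −281 bp. Just inside the gene the libraries each had 1 peak of their own, at +372 bp in WT and at +620 bp in KO, 147 bp apart. The peaks at −3383 (WT) and −3430 bp (KO) and at −31403 (WT) and −31404 bp (KO) were shared, while a pair at −14371 and −14321 bp was WT-only, 10790 bp or more from any KO peak. A last WT-only peak lay in an intron at +29024 bp. The KO-only pair at +58627 and +58701 bp lies beyond the gene, in an intron of Gm16953, and the shared peaks near +51170 bp mark the start of Skp1a, a ubiquitin ligase subunit.

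Tcf7l1, which encodes TCF3, the main TCF/LEF repressor of ESCs, lies on chromosome 6 from 72576372 to 72739248 on the minus strand (ENSMUSG00000055799.6). It was the member with the most peaks and, beside Ctnnb1, the only one with more in KO, with 18 in WT (10.7 to 28.4) and 22 in KO (13.8 to 33.3), a ratio of 1.22 (0.626 to 2.42) that includes equal numbers. The promoter was open in both libraries, with peaks at +5, −248 and −298 bp in WT and at −5, −307 and −389 bp in KO. Shared peaks in introns lay at +1814 (WT) and +1798 bp (KO), at +98394 (WT) and +98408 bp (KO), and in a group of 3 per library between +111504 and +111726 bp.

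Of the 22 KO peaks, 7 were KO-only, and all of these lay in introns of Tcf7l1. They stood at +1140, +30742, +35220, +35285, +35370, +55687 and +141736 bp. The 3 around +35285 bp form 1 region that is 33305 bp or more from any WT peak, and the one at +55687 bp holds CTTTGTT. The WT-only peaks were 3 and all upstream, at −42325, −39866 and −39786 bp, and the one at −39866 bp holds a motif as well. Closer to the gene, the peaks at −39311 (WT) and −39306 bp (KO) and at −36385 (WT) and −36306 bp (KO) were shared. The name numbers of the KO-only peaks ranged from 44.0% to 93.4% and those of the WT-only peaks from 77.5% to 94.7%. The window also takes in the starts of Tgoln1, Retsat and Elmod3, which were open in both libraries.

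**Figure D4:**
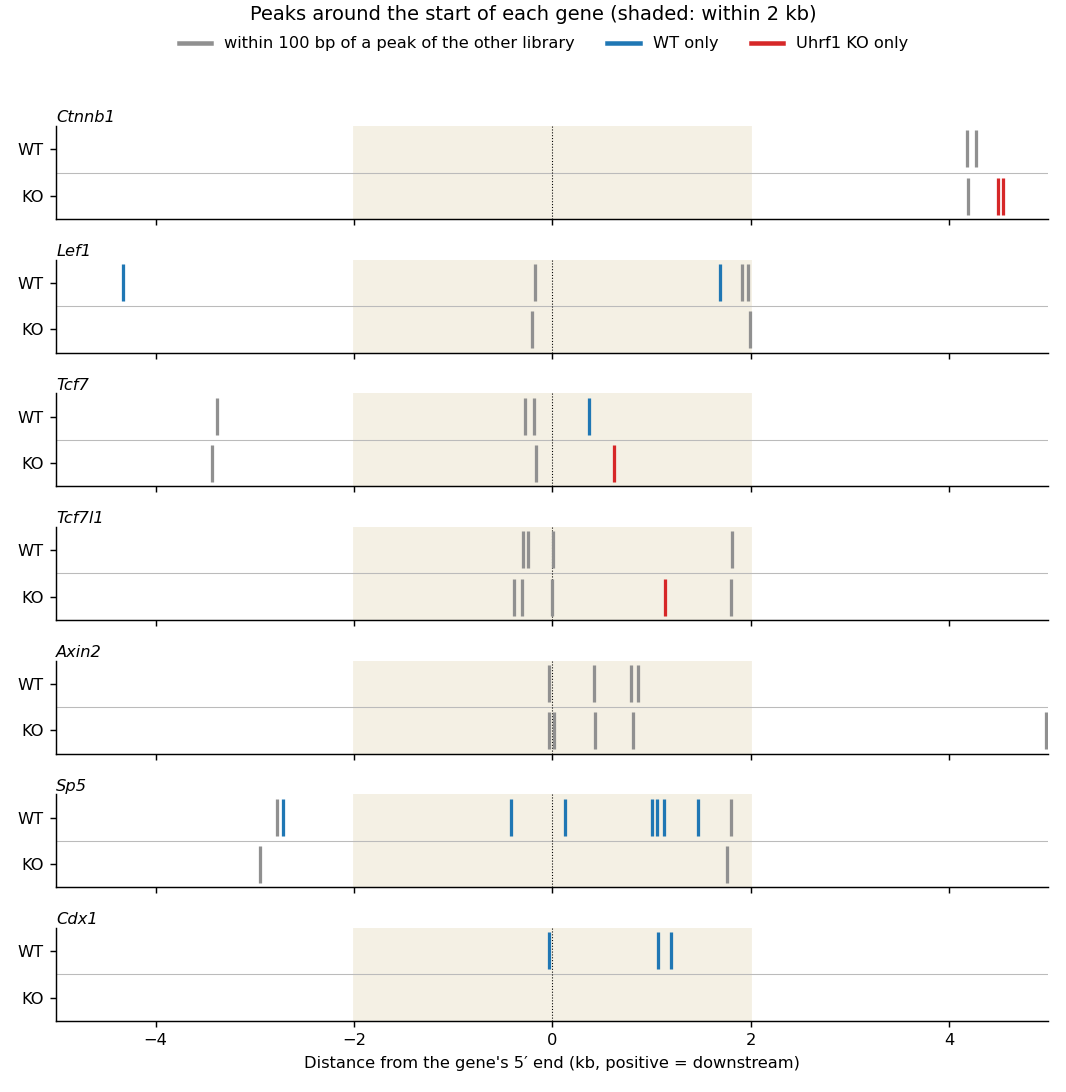
Peaks within 5 kb of the 5′ end of each gene are drawn by distance in kb (horizontal axis), WT above and Uhrf1 KO below, with the 2 kb on either side of the TSS shaded. The TCF/LEF genes and Axin2 have shared (grey) peaks at the TSS, Sp5 has 6 WT-only (blue) peaks and 1 shared peak in the shaded part, and Cdx1 has 3 WT-only peaks and 0 KO peaks.

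Axin2 lies on chromosome 11 from 108781663 to 108812097 on the plus strand (ENSMUSG00000000142.9) and is a feedback inhibitor of the pathway. Its window held 16 WT (9.15 to 26.0) and 10 KO peaks (4.80 to 18.4), a ratio of 0.625 (0.254 to 1.46), and each of the 10 KO peaks was shared. The start of the gene was listed in both libraries with the lowest name numbers of any member peak, at −31 bp in WT (2.90%) and at −34 and +20 bp in KO (4.85% and 5.21%). Further shared peaks lay in the first part of the gene at +417, +792 and +861 bp in WT and at +427 and +815 bp in KO. Upstream, WT and KO shared peaks at −31064 and −31119 bp, at −29174 and −29183 bp, at −10436 and −10446 bp and at −9233 and −9216 bp, in that order of libraries. In the gene body they shared peaks at +5045 (WT) and +4976 bp (KO) and at +23671 (WT) and +23672 bp (KO).

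3 WT peaks of Axin2 had no KO partner. The one at −9802 bp, which holds CTTTGTT, lay between shared peaks and was 485 bp from the closest KO peak. The other two lay in introns, at +8604 bp and at +21741 bp. The last of these is −75 bp from the annotated start of Gm11670. Of 5 upstream regions of Axin2, 4 were thus shared and 1, that at −9802 bp, was listed in WT only.

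Sp5 lies on chromosome 2 from 70312980 to 70315786 on the plus strand (ENSMUSG00000075304.2) and is the shortest of the 7 genes. Its window held 12 WT (6.20 to 21.0) and 3 KO peaks (0.619 to 8.77), a ratio of 0.250 (0.0453 to 0.926). In WT, 7 peaks lay within 2 kb of the TSS, at −417, +127, +1005, +1055, +1128, +1467 and +1796 bp, and so covered the upstream DNA, the UTR, the intron and the coding sequence. In KO, 1 peak lay within 2 kb, at +1762 bp in the coding sequence, and it is the partner of the WT peak at +1796 bp. The peaks from −417 to +1128 bp were 533 to 2078 bp from the closest KO peak, whereas that at +1467 bp was 194 bp away. Of 493 protein-coding genes with 7 or more WT promoter peaks, 20 had at most 1 in KO, both limits being the values of Sp5 itself.

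Upstream of Sp5 the libraries met again. WT had a shared peak at −2779 bp that holds CTTTGTT and a WT-only one at −2715 bp, 69 and 133 bp from the KO peak at −2949 bp. At the far end of the window, the starts of 4933404M02Rik and Gm16292 had peaks in both libraries, at +34385 and +34453 bp in WT and at +34433 bp in KO, and a WT-only peak at +34164 bp, 168 bp from the KO peak. Of the 8 WT-only peaks of this window, 3 (those at −2715, +1467 and +34164 bp) thus lay within 200 bp of a KO peak and the other 5 lay further off. The WT-only peak at +127 bp, shown above with its CTTTGAT, had 3 CG dinucleotides and a GC content of 47.5%, the lowest of the Sp5 peaks. The 8 WT-only peaks had a median GC content of 68.3%.

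Cdx1 lies on chromosome 18 from 61178516 to 61195853 on the minus strand (ENSMUSG00000024619.8). Its window held 11 WT (5.49 to 19.7) and 2 KO peaks (0.242 to 7.22), a ratio of 0.182 (0.0196 to 0.833). In a wider window of 100 kb to each side, the numbers were 13 and 7 for Cdx1 and 14 and 4 for Sp5. In WT the promoter had a peak at −34 bp with 18 CG dinucleotides and a GC content of 82.2%, and the intron had peaks at +1068 and +1199 bp. In KO no peak lay within 2 kb of the TSS, and the closest KO peaks were at −41092 and +57721 bp. Of 13538 genes with a WT promoter peak, 11.3% had none in KO, and of 5807 genes with 3 or more WT promoter peaks 3.82% had none. The number 3 was set after seeing Cdx1.

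The absence of KO peaks was not limited to Cdx1 itself. The stretch between the 2 KO peaks was 98.7 kb long and held 9 WT peaks. Of 54410 stretches between neighbouring KO peaks in the genome, 0.0809% held 9 or more WT peaks, a limit set after seeing this one. The stretches were not matched to this one in length, so the percent does not say how rare it is among stretches as long. Besides the 3 peaks at Cdx1, the WT-only peaks marked the start of Slc6a7, a brain proline transporter gene, at +21966 and +22262 bp, and the start of Pdgfrb, a receptor gene of mesenchymal cells, at −8875 bp. The others lay inside Pdgfrb at −29469 bp and inside Camk2a at +51806 and +54105 bp. The shared peaks lay in introns of Camk2a, at +57688 bp in WT, and of Pdgfrb, at −41105 bp in WT. Pdgfrb is one of the fibroblast markers named above, and its WT promoter peak counted there is this same peak at −8875 bp. The marker and the stretch are thus not separate observations, and other fibroblast markers had more KO than WT peaks. Counted by the nearest annotated start, 3 WT and 0 KO peaks were nearest to Cdx1, 9 and 2 to Sp5, and 15 and 10 to Axin2.

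By promoters, 6 of the 7 members had a WT peak within 2 kb of the TSS and 5 had a KO peak, against 60.9% and 55.7% of all protein-coding genes. Ctnnb1 had neither by this rule, and Cdx1 had WT peaks only. None of the 7 had a KO promoter peak without a WT one, a pattern found in 3.06% of the genes with a KO promoter peak. When the lower 50% of name numbers was kept, 4 members had a WT and 3 a KO promoter peak.

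The core of TCF/LEF sites was then searched as CTTTGAT and CTTTGTT on both strands, and the 2 words cannot occupy the same bases on 1 strand. In the central 200 bp around the peak middle, 15 of 89 WT peaks (16.9%, 9.75 to 26.3) and 9 of 65 KO peaks (13.8%, 6.53 to 24.7) of the 7 genes held a match, against 5.51% of all WT and 6.86% of all KO peaks. Over all peaks further than 2 kb from a transcript start the shares were 8.00% and 9.57%. Neighbouring peaks can hold the same match, as WT peaks of Axin2 and Tcf7 do, so these numbers count peaks and not separate sites. Within the listed 101 bp, 7 WT (7.87%) and 4 KO peaks (6.15%) held one, against 2.43% and 3.29% of all peaks. The targets and the other genes did not differ beyond counting error in WT, with 8 of 39 (20.5%, 9.30 to 36.5) and 7 of 50 peaks (14.0%, 5.82 to 26.7) in the central 200 bp. CTTTGAT alone was in the listed 101 bp of 4 WT peaks (4.49%, 1.24 to 11.1) and 1 KO peak (1.54%, 0.0389 to 8.28), against 0.701% and 0.941% of all peaks. In the central 200 bp it was in 8 WT peaks (8.99%, 3.96 to 16.9) and 4 KO peaks (6.15%, 1.70 to 15.0). The shares of all peaks there were 1.73% and 2.09%. A match is a run of letters and does not show that a factor binds there.

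Across the DNA within 2 kb of the TSS, whether open or not, all 3 targets held CTTTGAT at 2 places each and Tcf7 at 3, while Ctnnb1 held 1 and Lef1 and Tcf7l1 none. Of the 22225 protein-coding genes, 45.8% held at least 1 in the same length and 13.4% at least 2. At Sp5 the match at +92 bp lay under a WT peak and no KO peak, and that at −101 bp under none. At Cdx1 the match at −126 bp lay within 100 bp of the middle of the WT promoter peak, and that at +1390 bp near none. At Axin2 the match at +886 bp lay under a WT peak and within 100 bp of the middle of a KO peak, and that at +81 bp within 100 bp of the middle of a KO peak. At Tcf7 the match at −192 bp lay under a peak of each library, and those at −1283 and −1882 bp under none.

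A wider list of 101 genes of the pathway, of which 100 were found in the annotation, had fewer promoter peaks in KO than in WT. A promoter peak was present in WT for 89 genes (89.0%, 81.2 to 94.4) and in KO for 77 (77.0%, 67.5 to 84.8). In both libraries 76 had one, 13 in WT only, 1 in KO only and 10 in neither. The 13 are 14.6% of the genes with a WT promoter peak, near the 11.3% of all genes. Of 72 listed genes with 10 or more peaks, 11 (15.3%) had at least 2 times as many WT as KO peaks, near the 12.0% of all genes, and 0 the reverse. The median KO/WT ratio was 0.732, beside 0.818 over all protein-coding genes with 10 or more peaks.

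By role, the median ratio was lowest for 16 other target genes (0.563) and for ligands and their secretion (0.641), and highest for extracellular regulators (0.916). These medians rest on 12, 14 and 10 genes with enough peaks, and some genes stand under more than 1 role. Several ligand genes are neighbours whose windows overlap, so the same peaks were counted for more than 1 gene. Among the roles, the share of genes with a WT but no KO promoter peak was highest for ligands and secretion, at 4 of 16 (25.0%). This share rests on 4 genes and was given no interval, and over all genes with a WT promoter peak it was 11.3%. A loss specific to ligands or to target genes was not tested. Promoter peaks listed in WT only were found at the ligand genes Wnt1, Wnt3a, Wnt4 and Wnt5b. They were also found at the receptor genes Fzd3, with 5 WT and 0 KO promoter peaks, and Lrp5, at Dkk3, a secreted protein of the Dickkopf family, with 3 and 0, and at Dvl1, which relays the receptor signal to the destruction complex. Of the nuclear partners, Bcl9l, a coactivator that binds beta-catenin, and Cby1, which antagonises beta-catenin, had them. Of the other targets, T (Brachyury), Cdx2 and Tnfrsf19 had them, T with 1 and 0, Cdx2 with 1 and 0 and Tnfrsf19 with 3 and 0. Cdx2, a caudal-type gene like Cdx1, had 9 WT and 5 KO peaks in its window, against 11 and 2 for Cdx1.

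The single promoter listed in KO only was that of Rspo1, a secreted protein that strengthens Wnt signals, with 2 KO peaks. The genes with the most peaks in their windows differed little between the libraries in 2 of 3 cases: Apc2 had 23 WT and 20 KO peaks and Dvl2 had 21 and 21, while Gsk3a, a kinase of the destruction complex, had 31 and 20. The promoter of Gsk3a had 5 peaks in each library, so its difference lay elsewhere in the window.

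**Figure D5:**
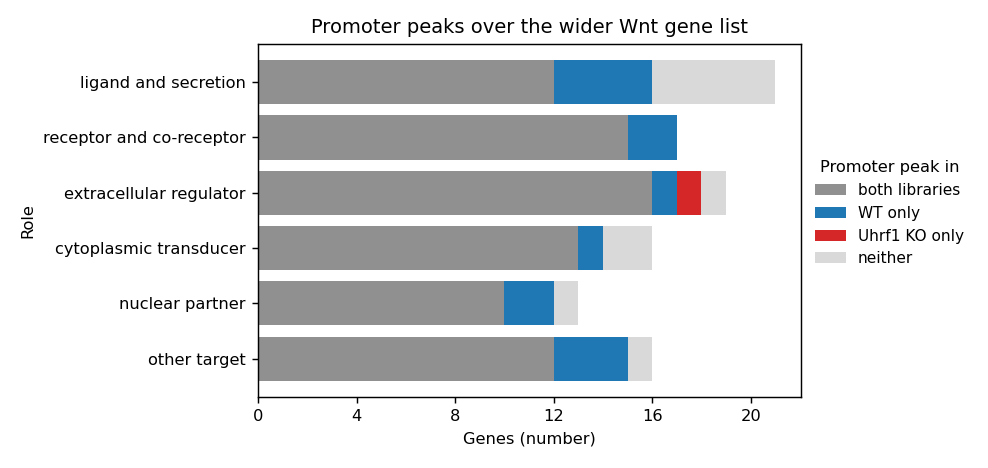
Bars count the listed genes of each role (vertical axis) by whether a promoter peak was present in both libraries (dark grey), WT only (blue), Uhrf1 KO only (red) or neither (light grey), with the number of genes on the horizontal axis from 0. A gene listed under more than 1 role is counted in each, so the bars add up to more than the 100 genes found. WT-only promoters occur in every role, 13 in all, and the only KO-only promoter is among the extracellular regulators.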

How the data were processed

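The authors mapped ATAC-seq reads of 1 WT and 1 Uhrf1 KO library to mm9 with Bowtie2 in local mode and used fragments below the size of a mononucleosome. The submitters' processing notes list Bowtie2 2.1.0 and HOMER 4.9.1 without a role. The peak caller's threshold, any shift of read ends and any excluded regions are not given in the sources used here. The authors deposited peak positions in BED format, almost all 101 bp wide, and a deposited score that has 1 value throughout and carries no information. There are no counts, so depth per peak is unknown.

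Peaks in each gene (GENCODE vM1, NCBIM37, the same build as mm9) with 50 kb on either side were compared between libraries in Python 3.11.15, with scipy 1.17.1, pandas 2.3.3 and numpy 2.4.6. Sequence was read from NCBIM37, and figures were drawn with matplotlib 3.10.9. Peaks up to 100 bp apart counted as shared, after the study's rule for factor peaks, and a promoter peak had its middle within 2 kb of the gene's 5′ end. Ratio intervals come from the exact binomial share of KO peaks. No test between genotypes was made. The overlap routine was tested on 20000 simulated peaks and made 0 wrong calls. Members and lists were chosen with earlier results of these data known. Text names all members, the listed pathway genes with a promoter peak in 1 library only and the 3 with the most peaks. Other neighbouring genes are named only to place a peak. No columns of other samples were present. Alternatives were other overlap rules, windows and promoter limits, merged peaks, lower name numbers and equal list lengths.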

Additional observations from a re-analysis of the deposited data

How the results depend on the processing

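Of 117 values recomputed under another setting, 88 moved by less than their counting interval or 1.5 times, and 29 moved further. Most are peak numbers or shares of 1 library, which have no direction. Between the libraries, the order at Ctnnb1 turned from 3 WT and 5 KO peaks to 2 and 0 with the lower 50% of name numbers. Of the main summaries, 40 of 47 kept their value in this sense. When a partner had to share at least 50% of both peaks, 53.9% of WT and 41.5% of KO peaks of the 7 genes had none. With the lower 50% of name numbers, 75.0% of the wider list had a WT and 54.0% a KO promoter peak, and 4 members had a WT and 3 a KO promoter peak. With the motif searched in the listed peak, shares were 7.87% (WT) and 6.15% (KO). The KO/WT ratio of the 3 targets, an outcome added after seeing the data, ranged from 0.333 with 10 kb on either side to 0.667 with the lower 50% of name numbers (interval 0.268 to 1.59), and that of the other 4 genes from 0.917 to 1.09. Single genes among these 4 moved in both directions. With 10 kb on either side, Lef1 had 10 WT and 5 KO peaks and Tcf7 5 and 3, beside 12 and 7 at Axin2. Tcf7l1 had 11 and 18, and Ctnnb1 3 and 4. No paired analysis was possible because WT and Uhrf1 KO have 1 library each. The lists carry no read numbers, so a weak peak and a missed one cannot be told apart.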
